A study of Mus musculus with 12 samples.

Results

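The genes described here are Reln and 7 further genes known from Cajal-Retzius neurons, namely Trp73, Lhx1, Lhx5, Ebf3, Nhlh2, Ndnf and Tmem163, that is 8 of the 18879 genes in the deposited table. They were chosen by name as layer I genes, and each was followed over 21 cell types and 3 genotypes. Prefrontal cortex of mice at postnatal day 0, labelled C57BL/6J although the methods of the study name another substrain, was profiled by single-cell RNA sequencing from the 5′ end of transcripts. The 3 groups were homozygous (HOM) and heterozygous (HET) mice with a 7 bp frameshift deletion in exon 6 of Myt1l, a neuronal transcription factor, and wildtype (WT) mice. Cells of 2 animals per genotype were pooled into 1 library, so differences between genotypes have no replicate check, and every comparison below is between 3 libraries. The allele is constitutive and HOM pups die after birth, so only newborn cells are compared.

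Cajal-Retzius cells are early-born neurons of the marginal zone, the later layer I. They secrete reelin, a large extracellular glycoprotein that binds the receptors Apoer2 (Lrp8) and Vldlr on migrating neurons and acts through phosphorylation of the adaptor Dab1 to position cortical layers from the inside out. Unlike most other pallial glutamatergic neurons, these cells carry p73, Lhx1, Lhx5 and Ebf proteins, and they largely disappear in the first weeks after birth, while GABAergic interneurons become the main source of reelin in the cortex.

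The HOM library held 13688 cells, the HET library 12072 and the WT library 10503, with median depths of 1330, 1099 and 1045 molecules per cell in that order. Xist, the RNA of the inactive X chromosome, was present in 20.2% of WT cells but in only 1 HOM and 2 HET cells, while 15.2% of HOM, 15.5% of HET and 5.74% of WT cells carried a Y-linked transcript. The WT library thus held female cells that the HOM and HET libraries lacked. Across libraries 648 cell barcodes occurred more than once, 15 of them among LayerI cells. Myt1l itself averaged 710 CPM in HOM, 450 CPM in HET and 370 CPM in WT cells, where CPM is a depth-corrected count per 1000000 of all genes, and since the frameshift leaves the transcript in place, this level does not check the genotype. Which cells belong to which genotype rests on the deposited cell table. In the published legend these cell numbers stand beside other genotypes than in that table, and if the legend were right, the genotype named beside every value below would change.

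In the mm10 annotation (GENCODE M21) Reln lies on the minus strand at chr5:21884454-22344702, Trp73 at chr4:154056253-154140208 (minus), Lhx1 at chr11:84518284-84525535 (minus), Lhx5 at chr5:120431699-120441223 (plus), Ebf3 at chr7:137193673-137314445 (minus), Nhlh2 at chr3:102010076-102015492 (plus), Ndnf at chr6:65671590-65712326 (plus) and Tmem163 at chr1:127486546-127679548 (minus). The table counts whole genes, so each value covers all exons and, where counted, introns of a gene. The sources used here do not say whether counting used strand. Lhx5 overlaps the antisense gene Gm27199 and Tmem163 overlaps Mgat5 on the other strand, and both partners were themselves measured in LayerI cells, with summed values of 31 for Gm27199 and 60 for Mgat5, so reads of these pairs may be shared.

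Since all 8 genes peaked in the same cells, the 250 bases upstream of their annotated RefSeq starts (GRCm38.p6) were searched on both strands for CANNTG, the E-box read by basic helix-loop-helix factors such as Nhlh2, and for AAAGTT, the motif of MYT1L. A window was at hand for 6 of the 8 genes, with 7 windows in all because Trp73 has 2 starts, and Lhx5 and Ndnf were not searched. CANNTG occurred in 5 of these 7 windows, against 66.2% of 32851 windows of all genes. AAAGTT occurred in 0 of 7, against 12.4% of all windows. The window of Reln is shown with those of both Trp73 starts, because the gene-level counts do not separate transcripts from the upstream start of Trp73 and from the internal start, which gives the form without the transactivation domain. Capitals mark CANNTG.
Reln, chr5:22344706-22344955, minus strand: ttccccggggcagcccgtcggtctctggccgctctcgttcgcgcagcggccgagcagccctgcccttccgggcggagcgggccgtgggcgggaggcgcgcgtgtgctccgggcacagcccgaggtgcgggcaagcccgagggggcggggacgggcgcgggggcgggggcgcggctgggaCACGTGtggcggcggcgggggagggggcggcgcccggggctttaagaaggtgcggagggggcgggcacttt
Trp73, upstream start, chr4:154139876-154140125, minus strand: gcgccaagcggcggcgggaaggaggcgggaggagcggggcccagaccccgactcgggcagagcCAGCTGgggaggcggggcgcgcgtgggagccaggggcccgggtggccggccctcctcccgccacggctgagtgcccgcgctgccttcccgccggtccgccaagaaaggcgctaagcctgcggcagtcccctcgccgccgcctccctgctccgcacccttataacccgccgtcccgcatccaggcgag
Trp73, internal start, chr4:154097174-154097423, minus strand: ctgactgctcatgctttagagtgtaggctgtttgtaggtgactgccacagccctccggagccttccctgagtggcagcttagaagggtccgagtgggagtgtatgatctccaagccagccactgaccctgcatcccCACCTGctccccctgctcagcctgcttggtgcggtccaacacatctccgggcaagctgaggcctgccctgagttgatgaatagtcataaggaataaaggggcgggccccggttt
The single E-box of the Reln window begins at base -71 from the start and reads CACGTG, a form present in 6.02% of all windows. GC content was 80.0% in the Reln window, 77.2% at the upstream Trp73 start and 58.4% at the internal one. A match says only that these letters are present.

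Reln, the secreted signal, was by far highest in cells labelled LayerI. Its level there was 2935 CPM in HOM, 2425 CPM in HET and 3712 CPM in WT cells. Int2 cells followed with 196 CPM in HOM, 158 CPM in HET and 198 CPM in WT, then Int3 with 177, 98.1 and 202 CPM and Int1 with 123, 50.3 and 116 CPM in the same order of libraries. The mean over the 3 libraries was 16.5-fold higher in LayerI than in Int2, and every LayerI library lay above every library of the other types. Below LayerI the order was not firm, since Int2 and Int3 overlapped between libraries (158 to 198 CPM for Int2, 98.1 to 202 CPM for Int3), and so did Int3 and Int1. LayerV-VI [18-P] neurons came next among neurons with 91.1 CPM in HOM, 83.2 CPM in HET and 81.0 CPM in WT. The lowest mean was that of SVZ1 migrating cells, with 18.7 CPM in HOM and 13.9 CPM in HET, and it overlapped that of ganglionic eminence cells, with 25.9 CPM in HOM and 11.0 CPM in HET.

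**Figure D1:**
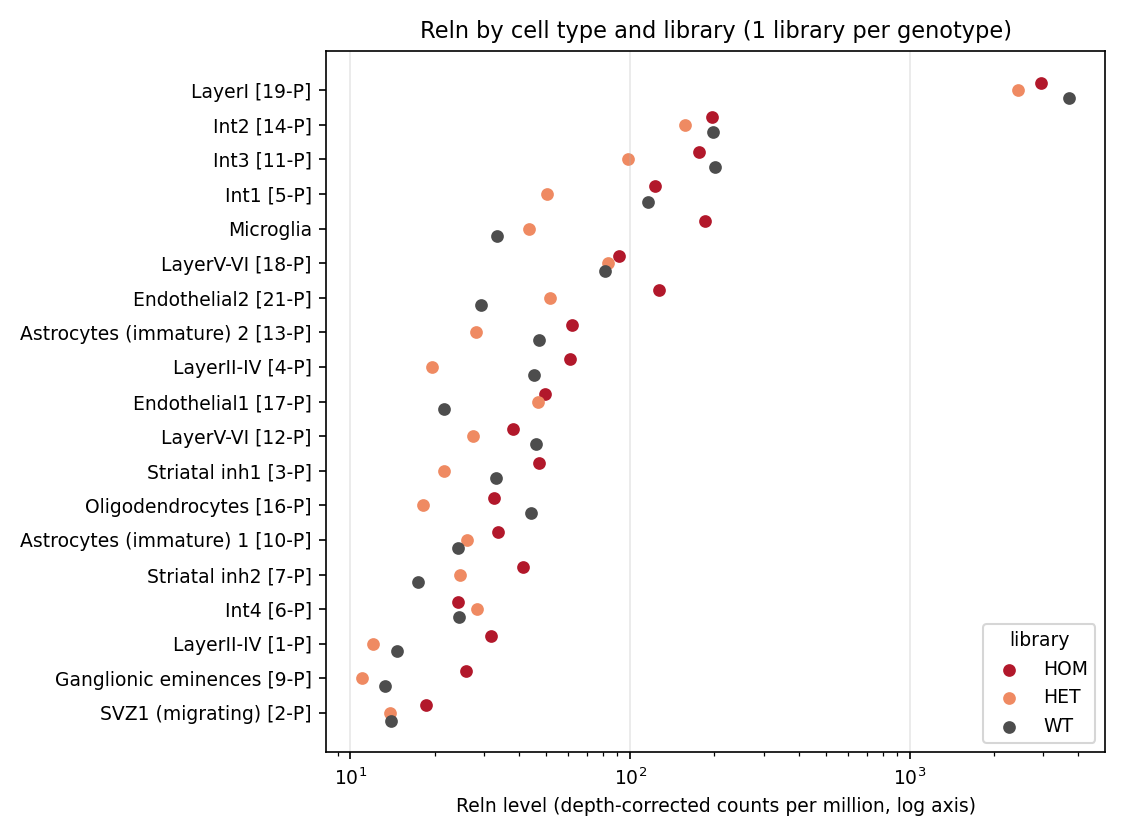
Reln level (horizontal, CPM, log axis) in the 19 cell types that had 50 or more cells per library, ordered by the mean of the 3 libraries; each point is 1 library (HOM, HET, WT). The LayerI points, between 2425 and 3712 CPM, lie apart from all others, and the HET point is lower than the WT point in Int1, Int2 and Int3.

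All 8 genes had their highest level in LayerI among the 20 types with at least 50 cells, and for all 8 even the lowest LayerI library was above the highest library of any other type. Cell type names were transferred by the authors from a reference atlas on the basis of expression that included these genes, so this is a check of the label and not an independent result. Of the 7 members with a sum of at least 50 over all cells, 7 were at least 4-fold higher in LayerI than in all other cells together, against 1.27% of 13622 genes. In Int2 only Lhx5 reached 4-fold over the remaining cells, which 0.712% of genes did. Ratios of LayerI to the next type ranged over the members from 7.48 for Tmem163 to 88.8 for Trp73, and Int2 was the next type for Reln, Lhx5 and Ndnf.

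Among the transcription factors, Trp73, Lhx1 and Ebf3 were the most restricted of all members, with ratios of LayerI to the next type of 88.8, 73.1 and 61.1. Trp73, the p53-family factor on which Cajal-Retzius survival depends in mice, had 162 CPM in HOM, 110 CPM in HET and 293 CPM in WT LayerI cells, and no other type averaged over 2.12 CPM. For Lhx1, a LIM-homeodomain factor, the LayerI levels were 53.9 CPM in HOM, 94.5 CPM in HET and 76.5 CPM in WT, and its relative Lhx5 had 119, 134 and 102 CPM. Ebf3, of the Collier/Olf/EBF family, had 80.9 CPM in HOM, 197 CPM in HET and 89.3 CPM in WT. The bHLH factor Nhlh2 had 243 CPM in HOM, 260 CPM in HET and 332 CPM in WT, and was the least restricted of the 5 factors, with a mean of 15.04 CPM in LayerV-VI [12-P] neurons and 34.1 CPM in the 66 SVZ2 cells. Outside LayerI these 5 factors were found in 0.0307% (Lhx1) to 0.312% (Nhlh2) of 35841 cells.

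Ndnf, a secreted neurotrophic factor that also marks layer 1 interneurons later in life, had 1013 CPM in HOM, 1008 CPM in HET and 1148 CPM in WT LayerI cells, against 28.6, 36.5 and 68.1 CPM in Int2. Tmem163, a zinc transporter of vesicle membranes, had 200 CPM in HOM, 165 CPM in HET and 230 CPM in WT LayerI cells. It was the broadest member, with a mean of 26.5 CPM in Astrocytes (immature) 1 and 23.8 CPM in oligodendrocytes.

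LayerI was not uniform. Of its 422 cells, 126 formed Leiden cluster 21 of the deposited clustering, which held no cell of another type, and the other 296 lay mainly in clusters 1 (164 cells) and 5 (88 cells), which had 3545 and 2393 cells in all. Cluster 21 took 65 of 237 LayerI cells in HOM, 36 of 114 in HET and 25 of 71 in WT. The median depth of its cells was 2305 molecules in HOM, 2174 in HET and 1296 in WT, against 666, 708 and 646 in the other LayerI cells. The median probability of the transferred name was 1.00, 0.999 and 0.999 in cluster 21 and 0.770, 0.728 and 0.875 in the remainder. As clusters were built from expression, the values that follow describe these cells and test nothing.

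Cluster 21 carried most of the LayerI signal. Reln reached 8131 CPM in HOM, 5869 CPM in HET and 7638 CPM in WT cells of cluster 21, against 352, 458 and 898 CPM in the other LayerI cells. It was detected in 84.6% of HOM cells (exact Clopper-Pearson 95% interval 73.5 to 92.4%, n = 65), 80.6% of HET cells (64.0 to 91.8%, n = 36) and 80.0% of WT cells (59.3 to 93.2%, n = 25), so the intervals of the 3 libraries overlapped. Intervals here and below cover counting error only. The corresponding shares in the other LayerI cells were 19.8% in HOM, 19.2% in HET and 26.1% in WT. Per cell, the Reln value of cluster 21 ran from 0 over a median of 3 to 82 in HOM, from 0 over 2 to 46 in HET and from 0 over 3 to 64 in WT. One cell thus gave 11.7% of the cluster's Reln in HOM, 17.0% in HET and 25.6% in WT, and without that cell the levels were 7297 CPM in HOM, 5023 CPM in HET and 5862 CPM in WT.

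In cluster 21, Ndnf was detected in 78.5% of HOM, 66.7% of HET and 84.0% of WT cells, and Nhlh2 in 47.7%, 50% and 44.0%. Trp73 was found in 41.5% of HOM cells (29.4 to 54.4%), 36.1% of HET cells (20.8 to 53.8%) and 56.0% of WT cells (34.9 to 75.6%). Ebf3 was found in 21.5% of HOM cells (12.3 to 33.5%), 41.7% of HET cells (25.5 to 59.2%) and 20.0% of WT cells (6.83 to 40.7%). Lhx5 shares were 30.8%, 44.4% and 28.0%, Tmem163 shares 46.2%, 38.9% and 40.0%, and Lhx1, the least often detected, was found in 13.8%, 16.7% and 24.0% of HOM, HET and WT cells. For each of the 8 genes the intervals of the 3 libraries overlapped. The intervals are wide at 65 HOM, 36 HET and 25 WT cells, and no share of all genes with overlap stands beside this count. It is not read as likeness of the genotypes or as a trait of the members.

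**Figure D2:**
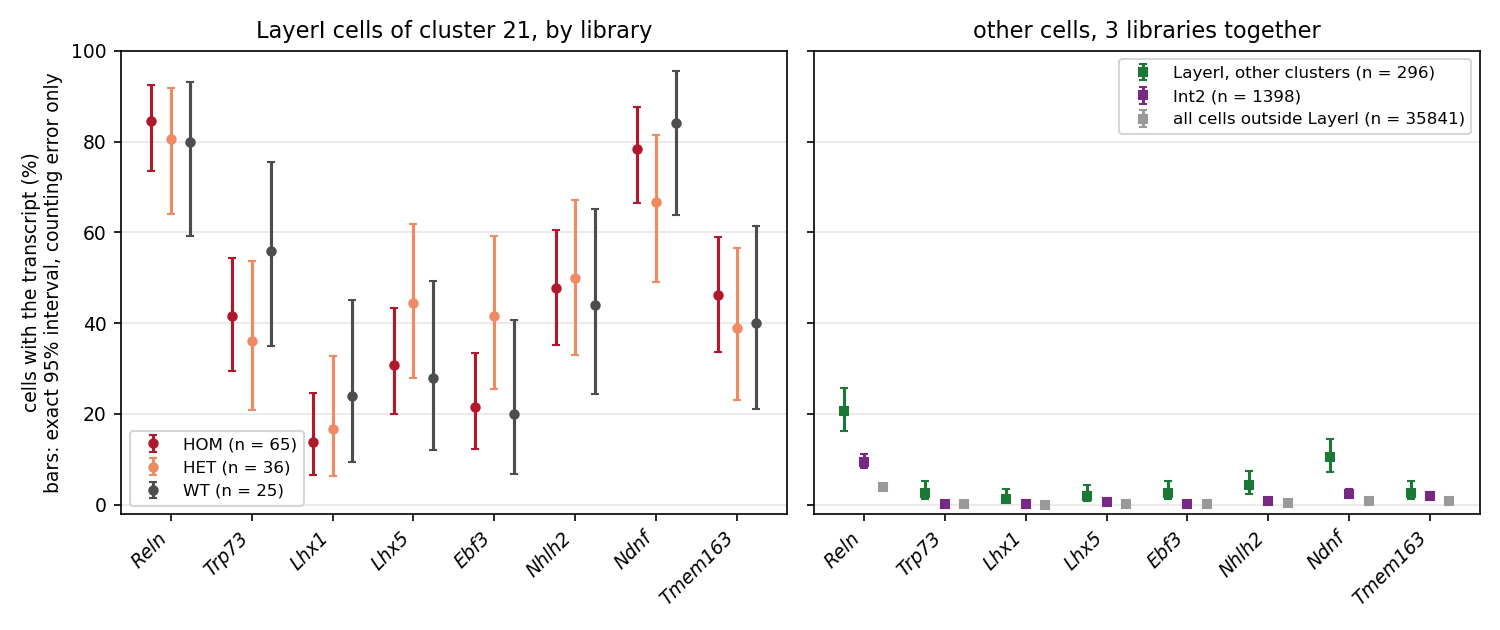
Share of cells with each transcript (vertical, %; bars are exact 95% intervals for counting error) in LayerI cells of cluster 21 by library (left) and in other LayerI cells, Int2 and all cells outside LayerI with the 3 libraries together (right). Reln was found in 80.0 to 84.6% of cluster 21 cells but in 20.6% of other LayerI cells and 9.51% of Int2 cells. The bars of the 3 libraries overlap for each member and are wide at 25 to 65 cells.

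Of the 24 other genes listed for Cajal-Retzius cells, 22 were in the table and 19 reached a sum of 50. At least 4-fold higher levels in cluster 21 than outside LayerI were reached by 10 of these 19, and by all 7 measured members, against 3.66% of 13612 genes. Calb2, which encodes calretinin, had 769 CPM in cluster 21 and 39.8 CPM outside LayerI. The nuclear receptor gene Nr2f2 had 363 and 15.3 CPM, Cacna2d2, a calcium channel subunit gene, 212 and 9.98 CPM, and Tbr1, a T-box factor of deep-layer and Cajal-Retzius neurons, 339 and 138 CPM. Cxcl12, the chemokine that meningeal cells secrete, had 1550 CPM in cluster 21 and 40.2 CPM outside LayerI, and the fibroblast gene Col1a1 had 84.8 and 2.11 CPM, while Col1a2, Col3a1, Dcn and Lum were at 0 in cluster 21. Of 22 genes listed for GABAergic interneurons, 0 of 21 measured were at least 4-fold higher in cluster 21 and 15 were at least 4-fold lower, where 26.6% of all genes were at least 4-fold lower, and of the 9 astrocyte and radial glia genes 7 were. Of the 14 excitatory cortical neuron genes 8 were at least 4-fold lower and 1 was at least 4-fold higher, so low levels were not particular to the interneuron list. The summed level of the interneuron genes was 441 CPM in HOM, 563 CPM in HET and 367 CPM in WT cells of the cluster, against 2063 CPM outside LayerI.

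The other LayerI cells stood closer to the remaining types. Their summed level of the 8 members was 883 CPM, against 12174 CPM in cluster 21 and 76.9 CPM outside LayerI. The summed level of 9 astrocyte and radial glia genes in them was 3229 CPM in HOM, 2263 CPM in HET and 2015 CPM in WT, against 3628 CPM outside LayerI, and most of it was Fabp7, a fatty acid binding protein gene of radial glia, with 2550 CPM in these cells and 2716 CPM outside LayerI. Slc1a3, a glutamate transporter gene of astrocytes, had 80.0 CPM in them and 317 CPM outside LayerI. The summed level of 22 interneuron genes was 1009, 717 and 920 CPM. Red blood cell genes summed to 3344 CPM in HOM, 1917 CPM in HET and 2540 CPM in WT, with 1294 CPM outside LayerI. The part of such RNA in the LayerI label of these cells was not tested.

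Cells with 3 or more members lay mostly in cluster 21. In cluster 21 a cell held a median of 4 of the 8 transcripts in each library, and at least 3 were found in 72.3% of HOM, 61.1% of HET and 76.0% of WT cells. In the other LayerI cells the corresponding shares were 3.49%, 5.13% and 8.70%, and in Int2 they were 0.327%, 0.410% and 0.334%. Outside LayerI only 13 of 35841 cells had 3 or more members. Cluster 21 cells were also the deeper ones, and the part of depth in these shares was not tested. Within cluster 21, Reln and Trp73 met in 46 of 126 cells, where the product of their shares gives 44.6. Reln and Lhx5 met in 33 against 35.5, and Reln and Ndnf in 89 against 79.2. Lhx1 and Lhx5 met in 17 against 7.17, while Lhx5 and Ndnf met in 25 against 32.8. These differences were not tested.

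**Figure D3:**
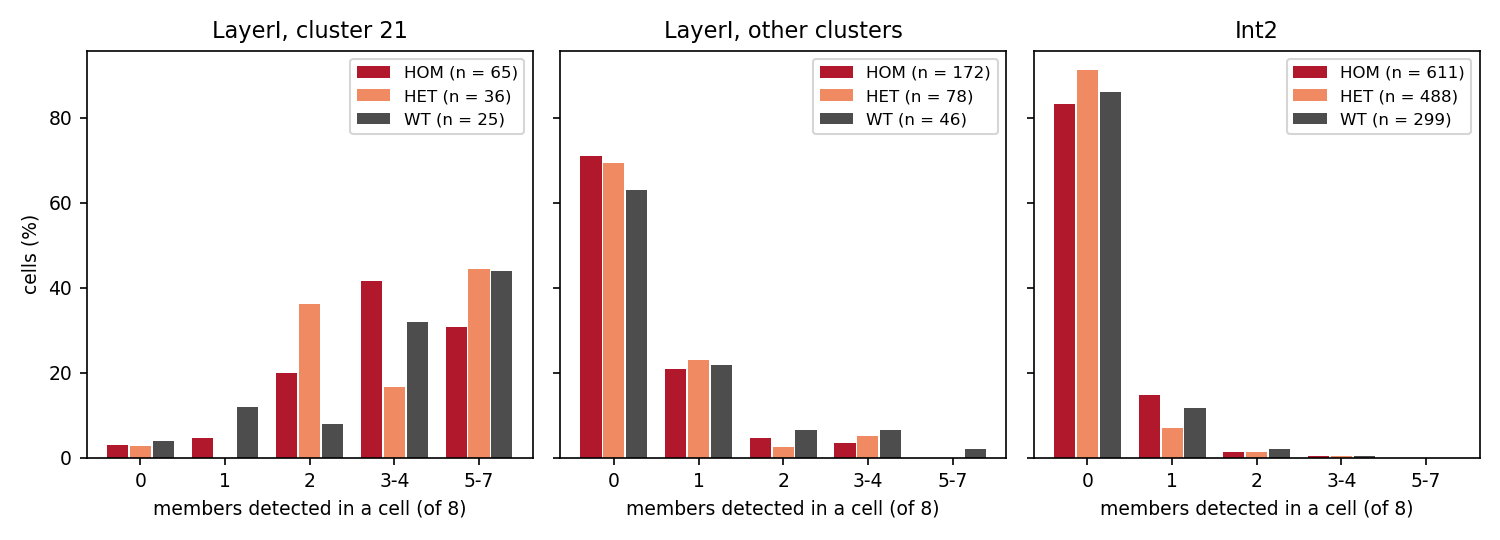
Share of cells (vertical, %) by the number of the 8 members detected in the cell (horizontal) for LayerI cells of cluster 21, other LayerI cells and Int2 cells, by library. Cells with 3 or more members make up 61.1 to 76.0% of cluster 21 and under 1% of Int2.

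Cells with Reln carried different companions in different types. Of 165 Reln-positive LayerI cells, 85 (51.5%, 43.6 to 59.4%) also held at least 1 of Trp73, Lhx1, Lhx5, Ebf3 and Nhlh2, and the share was 52.8% in HOM, 50% in HET and 50% in WT. In LayerI cells without Reln the share was 12.5% (8.7 to 17.1%). Within cluster 21 it was 72.1% with Reln and 68.2% without, and in the other LayerI cells 16.4% and 7.23%. Among Reln-positive Int2 cells it was 3 of 133 (2.26%, 0.468 to 6.45%), close to the 1.66% of Int2 cells without Reln. In Int1 it was 0 of 131 and in Int3 0 of 130 cells, for which the upper bounds of the exact interval were 2.78% and 2.80%. Gad1, Gad2 or Slc32a1, the genes for GABA synthesis and vesicular uptake, were found in 6.67% of Reln-positive LayerI cells, 33.8% of those in Int2, 69.5% in Int1 and 70.8% in Int3. Among cells without Reln, 8.56% had one of these 3 genes in LayerI, 28.9% in Int2, 62.9% in Int1 and 53.6% in Int3. Int3 cells with Reln had a median of 2538 molecules, against 1320 in those without. The part of depth in these shares was not tested.

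Cells with much Reln were mostly, but not all, in LayerI. A Reln value of 10 or more was reached by 54 cells, of which 39 were in cluster 21, 2 in other LayerI cells and 13 in other types. Ndnf was present in 39 of these 39 cells and in 8 of the 13 outside LayerI. With a value of at least 5, there were 15 such cells outside LayerI in HOM, 11 in HET and 11 in WT. In HOM microglia 3 such cells set the level of 185 CPM, which was 42.8 CPM without them, against 43.6 CPM in HET and 33.6 CPM in WT microglia.

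The question of genotype was first asked of the level per LayerI cell. In LayerI neurons, 0 of 5 measured members were at least 2-fold apart between HOM and WT (sum over both libraries of 50 or more), where 5.16% of 1104 genes were at least 2-fold higher in HOM and 1.72% at least 2-fold lower. Between HET and WT it was 0 of 3, with 3.12% of 642 genes higher and 1.56% lower, and between HOM and HET 0 of 5, with 1.81% of 1269 genes higher and 1.1% lower. The 5 members measured between HOM and WT, Reln, Trp73, Nhlh2, Ndnf and Tmem163, had log2 ratios of -0.34, -0.86, -0.45, -0.18 and -0.20, and their median of -0.34 stands beside a median of 0.13 over all genes. For HET against WT the ratios of Reln, Nhlh2 and Ndnf were -0.61, -0.35 and -0.19. These signs depended on the scaling. Median-of-ratios size factors moved every HOM to WT ratio in LayerI by 0.24 and every HET to WT ratio by 0.11 on the log2 scale. The HOM ratios of Reln, Trp73 and Nhlh2 were then -0.10, -0.62 and -0.21, and those of Ndnf and Tmem163 turned to 0.06 and 0.04.

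The ratios also depended on which LayerI cells were counted. In cluster 21 alone Reln had a log2 ratio to WT of 0.09 in HOM and -0.38 in HET, Ndnf 0.31 and 0.04, and in HOM Nhlh2 -0.01, Tmem163 0.04 and Trp73 -0.28. Among the other LayerI cells the Reln ratio was -1.35 in HOM and -0.97 in HET, on summed values of 61 in HOM, 37 in HET and 41 in WT. With LayerI cells of at least 1000 molecules Reln was higher in HOM than in WT, with a log2 ratio of 0.61, and with at least 2000 molecules the ratio of HET to WT was 0.45, on a WT sum of 90. The rule of a sum of 50 left out Lhx1, Lhx5 and Ebf3 in every comparison of LayerI, and Trp73 and Tmem163 also in that of HET with WT. Below that sum, Ebf3 had a log2 ratio of 1.14 for HET over WT, on summed values of 25 in HET and 7 in WT, and of -1.28 for HOM over HET, with a sum of 21 in HOM. Trp73 had -1.41 for HET over WT, on summed values of 14 in HET and 23 in WT.

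**Figure D4:**
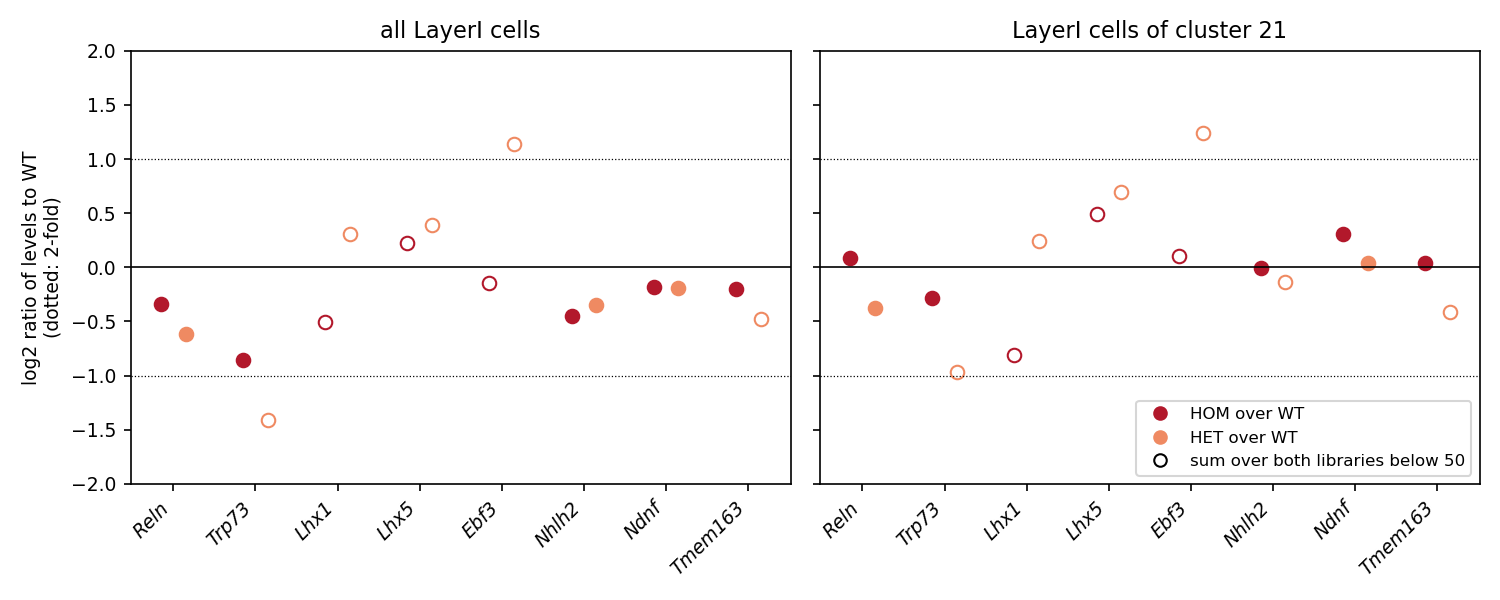
Log2 ratio of each member's level to WT (vertical) for HOM and HET in all LayerI cells (left) and in LayerI cells of cluster 21 (right); open points have a sum below 50 over both libraries and dotted lines mark a 2-fold ratio. With scaling by library totals, the 5 filled HOM points lie below 0 on the left, where median-of-ratios scaling puts Ndnf and Tmem163 above 0, and they spread on both sides of 0 on the right, where Reln is at 0.09.

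The share of cells that were LayerI differed between the libraries. LayerI cells made up 1.73% of HOM cells (1.52 to 1.96%), 0.944% of HET cells (0.780 to 1.13%) and 0.676% of WT cells (0.528 to 0.852%). Cells of cluster 21 were 0.475% of the HOM library (0.367 to 0.605%), 0.298% of the HET library (0.209 to 0.413%) and 0.238% of the WT library (0.154 to 0.351%). The HOM interval lay above the WT interval in both counts, and the HET and WT intervals overlapped. Other types differed in number as well. Of 13688 HOM and 10503 WT cells, Int2 took 611 and 299 and Astrocytes (immature) 2 took 2549 and 1300. In the other direction Int4 took 395 and 611 and SVZ1 792 and 979. A shifted share of cells is therefore not read as particular to LayerI. The sex difference between the libraries stands beside the LayerI counts. Of WT cells with Xist and no Y-linked transcript, 1 of 2112 was in cluster 21 (0.0473%), and of WT cells with a Y-linked transcript and no Xist 5 of 594 (0.842%, 0.274 to 1.95%). Among cells with a Y-linked transcript, cluster 21 took 0.479% in HOM (0.230 to 0.880%), 0.429% in HET (0.185 to 0.844%) and 0.829% in WT (0.2698 to 1.92%), and these intervals overlapped. Sex, animal and dissection cannot be told apart here.

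Over whole libraries, where the number of LayerI cells enters the level, Reln was highest in HOM. It was at 114 CPM in HOM, 60.2 CPM in HET and 70.4 CPM in WT, and was found in 5.78% of HOM cells (5.39 to 6.18%), 3.23% of HET cells (2.92 to 3.56%) and 3.74% of WT cells (3.39 to 4.12%). The HOM interval lay above the other 2. Of 7 members measured over all cells, 2 were at least 2-fold higher in HOM than in WT, where 1.49% of 12995 genes were at least 2-fold higher and 1.15% lower. Their log2 ratios were 1.35 for Lhx5 and 1.13 for Ebf3, and Ndnf followed at 0.97. Summed values were 51 in HOM and 15 in WT for Lhx5, and 41 and 14 for Ebf3. Both genes thus reached the minimum sum mainly through HOM, and their WT levels rest on few counts. For HET against WT neither reached it, with 24 in HET for Lhx5 and 29 for Ebf3. The 2 of 7 is therefore not read as an excess among the members. All 7 ratios of HOM to WT were above 0. No share of all genes above 0 stands beside that count, so it is not read as a trait of the members. HOM against HET gave 1 of 7 at least 2-fold higher, with 0.552% of genes higher and 0.261% lower. This was Trp73 at 1.19, on summed values of 63 in HOM and 24 in HET. HET against WT gave 0 of 5, with 0.35% of genes higher and 0.576% lower. A level over a whole library does not by itself separate more cells of a type from a higher level in those cells.

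Of all Reln in a library, LayerI held 41.1% in HOM, 36.1% in HET and 33.9% in WT, and cluster 21 alone held 37.8%, 31.8% and 29.1%. Int1 to Int4 together held 19.6% in HOM, 19.9% in HET and 24.2% in WT, and the 4 layer II to VI types 16.3%, 25.8% and 24.0%. Of the summed depth-corrected counts of a library, LayerI held 1.59% in HOM and 0.643% in WT, near its 1.73% and 0.676% of cells. If WT levels inside and outside LayerI are combined with this HOM share, Reln comes to 105 CPM. The measured levels were 114 CPM in HOM and 70.4 CPM in WT. With HOM levels and this WT share Reln comes to 86.6 CPM. For Ndnf, LayerI held 54.8% of the library sum in HOM, 52.9% in HET and 49.2% in WT.

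**Figure D5:**
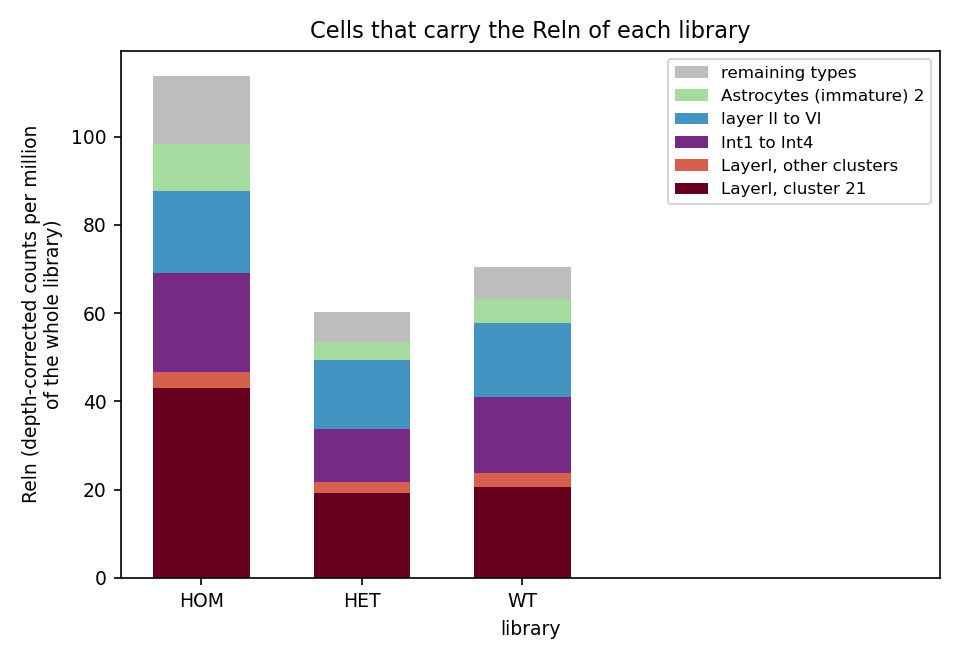
Reln level of each library (vertical, CPM of the library) divided by the cells that carry it, for HOM, HET and WT. LayerI cells of cluster 21 give 43.0 of 114 CPM in HOM, 19.1 of 60.2 CPM in HET and 20.5 of 70.4 CPM in WT.

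Outside LayerI, Reln was at 68.1 CPM in HOM, 38.8 CPM in HET and 46.8 CPM in WT, and its share of positive cells was 5.22% (4.85 to 5.61%), 2.89% (2.60 to 3.21%) and 3.46% (3.12 to 3.83%). The HOM share was above the WT share in 17 of 18 types that had 50 or more cells per library and above the HET share in 17, and the HET share was below the WT share in 15. No share over all genes stands beside these counts, so they are not read as a trait of Reln. All types share the same 3 libraries, with median depths of 1330 molecules in HOM, 1099 in HET and 1045 in WT. The part of depth was not tested. At the cell type shares of WT, the HOM share over these types was 4.69%, the HET share 2.71% and the WT share 3.44%. The HOM and WT intervals were apart in 1 type, LayerII-IV [1-P], with 3.01% in HOM (2.31 to 3.84%) and 1.33% in WT (0.860 to 1.95%), and 1.24% in HET.

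By level, HOM was higher than WT in 6 of 9 types where the Reln sum reached 50, LayerI included, and at least 2-fold higher in 2, microglia and LayerII-IV [1-P], where 1.31% of pairs of a gene and one of these types were at least 2-fold higher and 2.68% lower. Summed values were 70 in HOM and 9 in WT microglia, and 79 and 32 in LayerII-IV [1-P]. Microglia thus reached the sum of 50 through HOM. Without the 3 cells of 5 or more, HOM microglia had 42.8 CPM against 33.6 CPM in WT, which is under 2-fold. HET was lower than WT in 7 of 8 types and at least 2-fold lower in 3, where 1.48% of such pairs were at least 2-fold lower and 0.63% higher. These 3 were Int1 with a log2 ratio of -1.20 (summed values of 34 in HET and 56 in WT), Int3 with -1.04 (37 and 70) and LayerII-IV [4-P] with -1.21 (29 and 38). Both comparisons share the WT library.

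Part of the Reln outside LayerI and the interneurons was in types not known for it. Reln was found in 5.38% of HOM, 2.34% of HET and 2.28% of WT endothelial cells and in 3.46%, 1.46% and 2.90% of oligodendrocytes, with median depths of 1004 to 2260 molecules in HOM, 1073 to 1382 in HET and 1099 to 1408 in WT. Int4 was at the same level, with 2.53% in HOM, 2.94% in HET and 2.45% in WT. Int3 was well above it, with 15.3% in HOM (12.03 to 18.97%), 8.81% in HET (5.93 to 12.5%) and 12.4% in WT (8.80 to 16.8%), at median depths of 1459, 1178 and 1700. In Astrocytes (immature) 2 the ratio of summed values of the 5 transcription factors to Reln was 0.189 in HOM, 0.0848 in HET and 0.108 in WT, against 0.224, 0.328 and 0.241 in LayerI cells. The ratio of Ndnf to Reln was 0.257 in HOM, 0.475 in HET and 0.323 in WT in these astrocytes, and 0.345, 0.416 and 0.309 in LayerI. The part of free RNA in these values was not tested.

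In the WT library, Reln was found in 2.79% of cells with Xist (2.13 to 3.59%, n = 2112) and in 3.37% of cells with a Y-linked transcript (2.07 to 5.15%, n = 594), and the intervals overlapped. Over all their cells the levels were 31.6 and 67.8 CPM, and outside LayerI 30.9 and 33.0 CPM. Cells in which neither was found were shallower, with a median of 830.5 molecules against 3588 with Xist and 3176 with a Y-linked transcript, and 4.03% of them had Reln.

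Profiles over the 20 types and 3 libraries (60 points, log2 of CPM plus 10) were compared by Pearson's r as a description, without a test, since points share libraries and the LayerI points dominate. Among the members r with Reln ran from 0.61 for Tmem163 to 0.88 for Ndnf, and Lhx1 and Ebf3 were most alike at 0.98. Outside the list, the 10 genes most like Reln were Ache (0.83), Snhg11 (0.82), Thy1 (0.79), Rcan2 (0.75), Syndig1l (0.73), Cacna2d2 (0.69), Disp2 (0.69), Nr2f2 (0.68), Pdgfa (0.68) and Ptprn (0.68). Ache encodes acetylcholinesterase and Thy1 a neuronal surface glycoprotein. The mean profile of the other 7 members was most like Ache (0.86), Emx2os (0.78), Syndig1l (0.71), Kcnip2 (0.66), Homer2 (0.65), Ajap1 (0.64), Thy1 (0.64), Eln (0.64), Thsd7b (0.63) and Eif5a2 (0.62). Ranked by the ratio of LayerI to the next type, 10 CPM added to both, the first 4 genes with a sum of 200 or more over all cells were members, Ndnf (19.6), Reln (15.7), Nhlh2 (6.53) and Tmem163 (5.71), followed by Ache (4.50), Emx2os (3.09), Homer2 (2.51), Syndig1l (2.21), 1500009L16Rik (2.21) and Eif5a2 (2.20).

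Of the members, only Reln, Nhlh2 and Ndnf reached the sum of 50 in LayerI both for HOM and for HET against WT, and none of these 3 was 2-fold apart from WT in both. Of 543 genes measured in both comparisons, 8 were at least 2-fold higher than in WT in HOM and in HET, and 1 was at least 2-fold lower. The noncoding RNA Snhg11 had 470 CPM in HOM, 882 CPM in HET and 128 CPM in WT LayerI cells, where outside LayerI it had 35.9, 30.5 and 30.5 CPM. Myt1l had 516, 394 and 140 CPM in LayerI, and outside it 713, 450 and 372 CPM. The others were Psmb5, Pdia3, Ndufs5, Ckb, Evl and Ergic3, with log2 ratios of 1.04 to 1.38 in HOM and 1.06 to 1.57 in HET, and the lower gene was Tcf4, a bHLH factor, at -1.10 and -1.09. The WT level of these genes rests on 71 cells, with summed values of 10 to 42 apiece. Of the listed genes Calb2 was lower in HET LayerI cells, with 205 CPM against 498 CPM in WT. Npy was higher in HOM, with 297 CPM against 115 CPM in WT, and so was Igfbp2, with 185 CPM against 25.5 CPM. Summed values were 77 in HOM and 9 in WT for Npy, and 48 and 2 for Igfbp2. Both genes thus reached the sum of 50 through HOM, and their WT levels rest on few counts. In cluster 21 alone Npy had 162 CPM in HOM, 152 CPM in HET and 153 CPM in WT. Cux1, a homeodomain factor of upper layers, had 185 CPM in HOM and 78.7 CPM in HET LayerI cells, with 128 CPM in WT. Its summed values were 48 in HOM, 10 in HET and 10 in WT. Ptgds, a meningeal and glial gene, had 266 CPM in HOM LayerI cells and a sum of 0 in HET and WT LayerI cells. Outside LayerI it was likewise high in HOM, with 638 CPM against 5.56 CPM in HET and 6.11 CPM in WT, so its LayerI value moved with the whole library. Outside LayerI Igfbp2 had 314 CPM in HOM, 246 CPM in HET and 177 CPM in WT, and Npy 437, 333 and 251.5 CPM.

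The receptors and the cytoplasmic pathway of reelin were read in the cells that respond to it. Of 30 listed genes 0 were at least 4-fold higher in LayerI than elsewhere. Dab1, the adaptor, was highest in LayerII-IV [1-P] neurons, at a mean of 632 CPM, against 53.0 CPM in LayerI. Lrp8 was highest in Endothelial1 cells (531 CPM), and Vldlr in Int3 (121 CPM) with 33.0 CPM in LayerI. Averaged over the 4 layer II to VI types, 0 of 17 measured pathway genes were at least 2-fold higher or lower in HOM, where 0.236% of 3390 genes were higher and 0.56% lower, and 0 of 18 in HET, where 0.0308% of 3249 genes were higher and 0.154% lower. Their median log2 ratio was -0.20 in HOM, beside -0.03 over all genes, and -0.05 in HET, beside -0.02.

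In HOM 6 of the 17 were lower than in WT in all 4 layer types and 1 was higher, where 25.6% of all genes were lower in all 4 and 21.4% higher. In HET 4 of 18 were lower in all 4 types and 2 were higher, where 23.8% of all genes were lower and 20.9% higher. The 6 in HOM were Vldlr, the src-family kinase gene Fyn, Crk, Pafah1b1, Cul5, whose product takes part in Dab1 turnover, and Efnb2, and the one that was higher was Cfl1, the gene of cofilin. Vldlr had 51.7 CPM in HOM, 51.7 CPM in HET and 73.2 CPM in WT layer II to VI neurons, with mean log2 ratios of -0.49 in HOM and -0.53 in HET and the same sign in all 4 types in both. Lrp8 had 94.98 CPM in HOM, 80.4 CPM in HET and 111 CPM in WT, with mean ratios of -0.34 in HOM, where 1 of 4 types was above 0, and -0.47 in HET, where 0 were. Dab1 had 483 CPM in HOM, 374.5 CPM in HET and 398 CPM in WT, with mean ratios of 0.22 and -0.05. All of these were under 2-fold.

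Of the listed genes for proteases that cut reelin and their inhibitor, Plat, which encodes tissue plasminogen activator, was highest in Endothelial2 cells at a mean of 336 CPM, with 5.14 CPM in LayerI. The tolloid-family gene Bmp1 was also highest in Endothelial2, at 116.5 CPM, with 12.35 CPM in LayerI. Adamts2 and Adamts3 were highest in LayerII-IV [1-P] neurons at 71.1 and 46.4 CPM, and both were at 0 in LayerI. Of 8 genes in this list 0 reached a sum of 50 in all 4 layer types, so none was compared between genotypes.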

How the data were processed

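Prefrontal cortex cells of P0 mice were methanol fixed, chemically barcoded and loaded on 10x 5′ chips. The 12 deposited samples are 4 sequencing runs of each of 3 libraries. The authors used Cell Ranger 4.0.0, mm10 and Seurat 4.0. In the deposited cell by gene table the values are whole-number scores, namely counts corrected for depth, not raw reads: their totals per cell ran from 825 to 1952, while the deposited molecule counts ran from 499 to 17602. No count model was therefore applied. The authors also deposited per cell the percent of mitochondrial counts and, for each transferred cell type, a probability as a fraction (share) between 0 and 1. Cell types were transferred by the authors with scANVI and used as deposited. Their MAST comparison tables hold log2 fold changes and p-values and were not used.

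Levels are summed scores of a gene over cells, divided by the summed score of all genes and given per 1000000 (CPM). Ratios between libraries were read where the sum over both reached 50. A 2-fold ratio, or 4-fold between a cell type and the rest, is a rule of size and not a test, since each genotype had 1 library. Shares carry exact Clopper-Pearson 95% intervals. Total molecules per library were 36398283 in HOM, 27370206 in HET and 23288915 in WT. No doublet caller was run, as the values are corrected. The genes named outside the members are the 10 most like Reln, the 10 most like the mean of the other members, the 10 with the largest ratio of LayerI to the next type, those 2-fold apart from WT in LayerI of both mutants and, of each list, those 2-fold apart in LayerI and up to 4 with the highest level. Other listed genes, among them meningeal, glial and pathway genes, were named after their values were seen. Members and lists were chosen with earlier results of these data known. The ratio calculation was tested on simulated data. Python 3.11.15, numpy 2.4.6, pandas 2.3.3 and scipy 1.17.1 were used. Alternatives covered the scaling, depth, name probability, minimum sum, sex-linked transcripts and, added after the data were seen, the split of LayerI by cluster 21 and cells outside LayerI.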

Additional observations from a re-analysis of the deposited data

Results flagged for a closer look

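For 4 of the 5 members measured in LayerI the ratio of HOM to WT had opposite signs in LayerI and in the cells outside it. There was 1 library on each side, and this difference was not tested. The remaining member, Trp73, had summed values of only 21 in HOM and 5 in WT outside LayerI. No share of all genes with opposite signs stands beside this count, so it is not read as a trait of the members. The log2 ratios were -0.34 in LayerI and 0.54 outside for Reln, -0.45 and 0.41 for Nhlh2, -0.18 and 0.82 for Ndnf, and -0.20 and 0.04 for Tmem163. For HET against WT the same held for Ndnf, with -0.19 in LayerI and 0.08 outside, and was not tested either. The opposition did not hold under every alternative for HOM. In LayerI cells of cluster 21 the ratio was 0.09 for Reln, 0.31 for Ndnf and 0.04 for Tmem163, with at least 1000 molecules it was 0.61 for Reln, and with median-of-ratios scaling of LayerI it was 0.06 for Ndnf and 0.04 for Tmem163. For HET the Ndnf ratio in cluster 21 was 0.04.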

How the results depend on the processing

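Each library stands alone for its genotype, so no library could be left out. No paired analysis was possible because each genotype had 1 library. Of 120 alternative values 84 moved by less than their counting interval or, for ratios and counts, stayed within the same bounds, and 36 moved. The cause was not tested. The Reln-positive share was 4.82% in HOM, 2.65% in HET and 2.65% in WT at 2000 or more molecules, 5.22% in HOM and 2.89% in HET outside LayerI, and 3.32% in WT cells with a Y-linked transcript. The LayerI share of Reln was 52.6% in HOM and 43.2% in HET at 1000 or more molecules, 50.4% in HOM, 58.0% in HET and 42.3% in WT at 2000 or more, 46.4% in HOM and 44.6% in HET at a name probability of 0.9, 50.3% in HOM, 56.2% in HET and 51.8% in WT in cells with a Y-linked transcript, and 37.4% in WT without Xist cells. The share of Reln-positive LayerI cells with a transcription factor was 83.9% at 1000, 96.4% at 2000 or more molecules and 61.7% at a probability of 0.9, and in Int2 it was 0% (0 of 17 cells) at 2000 or more. The Reln log2 ratio in LayerI was 0.61 for HOM against WT at 1000 or more molecules, 0.44 at 2000 or more, 0.61 with a Y-linked transcript and -1.35 without cluster 21. For HET against WT it was 0.45 at 2000 or more and 0.23 with a Y-linked transcript, and for HOM against HET 1.03 at 1000 or more and -0.38 without cluster 21. Members 2-fold apart in LayerI numbered 1 for HOM against WT with a Y-linked transcript (Ndnf) and 1 without cluster 21 (Reln). For HET against WT they numbered 2 (Trp73, Ebf3) at a minimum sum of 20 and 2 with no filter. For HOM against HET they numbered 1 (Reln) at 1000 or more molecules, 1 (Ebf3) at a minimum sum of 20 and 1 with no filter.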
